A study of Mus musculus with 12 samples.

Results

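The tumour suppressor p53, encoded by Trp53, and 8 genes that it is known to activate were examined in ATAC-seq peak lists of mouse embryonic stem cells. The genes were chosen by name: Trp53, Mdm2, Ccng1, Trp53inp1, Cdkn1a, Bbc3, Pmaip1, Bax and Fas, 9 of 21887 protein-coding genes in the RefSeq gene table of GRCm38. Every peak that overlapped a gene, from its outermost annotated start to its outermost annotated end with 5 kb added on each side, was taken, and peaks that overlapped each other were merged over the libraries into 27 regions, out of 97889 regions in the whole genome. Interest in the set came from Bbc3, which had been listed more often in one genotype by a narrower measure and without adjustment, so every value of Bbc3 between genotypes is given below as a description, with no test.

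The cells came from a cross of the strains C57BL/6 and CAST (BL6xCAST in the labels) and carried 1 of 2 synthetic sequences integrated on chromosome X, HPRT1 (genotype synHPRT1) or its reversed form HPRT1R (genotype synHPRT1R). Each genotype was represented by 2 clones with 3 replicates per clone, 12 libraries in all. All cells, in both genotypes, were kept on gelatin with LIF and the 2i inhibitors CHIR99021 and PD0325901, which hold mouse embryonic stem cells in the naive state, in a mixture of 2i and serum-containing medium. ATAC-seq uses a transposase to insert adapters into accessible DNA, and a peak is a stretch where insertions pile up above the local background. The lists held between 38403 and 63704 peaks per library, the shortest in synHPRT1 clone 2 replicate 3 and the longest in synHPRT1 clone 2 replicate 1. A library that lists no peak at a site did not detect one at its depth, and in these bulk samples fewer cells with an open site and a less open site in every cell cannot be told apart. The labels do not say whether replicates came from separate cultures, so the tests measure the spread between these libraries.

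p53 is a transcription factor that responds to DNA damage and other stress. It halts the cell cycle mainly through Cdkn1a and promotes cell death through genes of the Bcl2 family and death receptors, and it is held in check by Mdm2, whose gene it activates. Embryonic stem cells divide rapidly with a short G1 phase and are known to be prone to death rather than arrest after damage.

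As a check of the labelled cell type, 8 of 8 stem cell markers, led by Tfcp2l1, Nanog and Esrrb, had a peak within 5 kb of the gene in all 12 libraries. Of 8 fibroblast and feeder markers 3 did (Col1a1, Pdgfra and Pdgfrb), and of 5 blood markers 3 did (Itgam, Spi1 and Ptprc), against 13859 of 21887 protein-coding genes. These windows also take in neighbouring genes. Strength was read as the percent of peaks of the same list with a lower fold over local background. For the strongest peak of genes with one, its median was 64.5 over the stem cell markers. It was 35.7 over the fibroblast and feeder markers and 71.4 over the blood markers. By strength, the stem cell markers did not stand above the blood markers. Postn and Cd3e had no peak in any library.

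Start sites and promoter sequence came from the RefSeq promoter table of GRCm38.p6, which matched 7 of the 9 genes with 10 windows. Each window runs from 250 bases before to 50 bases after an annotated start. The first pair shown is Cdkn1a, whose 2 annotated starts differed, the upstream one without a peak in any library and the downstream one with a peak in all 12. Trp53 is shown because its start was listed in 1 library, Fas because its start was listed in 4 libraries of one genotype, and Bbc3 because the peaks of the genotypes reached to different points around its first start. Sequences run 5′ to 3′ on the strand of the gene, and capitals mark exact matches on either strand to the p53 decamer (the 10-base consensus unit that a full p53 site holds as a pair), to CCAAT, to GGGCGG (the GC box) or to TATAAA.
Cdkn1a upstream start, chr17:29090729-29091028, plus strand: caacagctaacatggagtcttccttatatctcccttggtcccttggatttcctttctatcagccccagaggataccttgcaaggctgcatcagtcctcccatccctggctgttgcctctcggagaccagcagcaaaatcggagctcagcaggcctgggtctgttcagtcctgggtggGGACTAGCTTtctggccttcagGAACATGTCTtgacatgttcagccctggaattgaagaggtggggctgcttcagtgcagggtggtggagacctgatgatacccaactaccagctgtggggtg
Cdkn1a downstream start, chr17:29093519-29093818, plus strand: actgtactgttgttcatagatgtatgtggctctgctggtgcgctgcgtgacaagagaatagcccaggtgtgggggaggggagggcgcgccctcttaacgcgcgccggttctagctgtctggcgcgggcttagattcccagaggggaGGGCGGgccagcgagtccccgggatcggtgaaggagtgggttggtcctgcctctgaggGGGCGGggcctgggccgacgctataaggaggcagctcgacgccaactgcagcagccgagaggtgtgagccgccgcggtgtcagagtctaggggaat
Trp53, chr11:69580109-69580408, plus strand: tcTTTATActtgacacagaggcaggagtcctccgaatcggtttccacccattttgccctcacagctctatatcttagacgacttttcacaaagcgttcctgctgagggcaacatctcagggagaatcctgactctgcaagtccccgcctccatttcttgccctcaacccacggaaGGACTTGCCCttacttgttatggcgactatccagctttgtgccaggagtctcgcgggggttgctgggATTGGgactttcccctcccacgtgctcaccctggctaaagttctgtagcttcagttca
Fas, chr19:34290409-34290708, plus strand: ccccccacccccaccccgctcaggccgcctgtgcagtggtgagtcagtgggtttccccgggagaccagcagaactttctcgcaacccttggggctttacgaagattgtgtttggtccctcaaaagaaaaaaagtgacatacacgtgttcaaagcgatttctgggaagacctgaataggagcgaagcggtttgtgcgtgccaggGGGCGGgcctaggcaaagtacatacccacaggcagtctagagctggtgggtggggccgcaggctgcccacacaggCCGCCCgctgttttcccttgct
Bbc3 first start, chr7:16309333-16309632, plus strand: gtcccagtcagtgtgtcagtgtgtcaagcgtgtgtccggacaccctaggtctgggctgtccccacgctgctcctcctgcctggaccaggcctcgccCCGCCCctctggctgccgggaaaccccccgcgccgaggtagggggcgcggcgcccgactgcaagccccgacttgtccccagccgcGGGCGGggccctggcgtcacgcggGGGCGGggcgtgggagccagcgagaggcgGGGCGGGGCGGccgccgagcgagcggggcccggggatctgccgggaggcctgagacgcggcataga

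The p53 decamer had an exact match in 5 of the 10 windows, and in 1568 of the 21263 promoter windows of protein-coding genes (7.4%). In the upstream Cdkn1a window it matched from base -73 and from base -51, counted from the start site as 0, as GGACTAGCTT and GAACATGTCT. Mdm2 held GAACTTGCCT from -186, Ccng1 GGGCAAGCCT from -185, Bax AGGCAAGCTT from -201 and Trp53 GGACTTGCCC from -75. The windows of Bbc3 and Fas and the downstream window of Cdkn1a held no exact match. The GC box was present in 7 of the 10 windows (46.2% of all), CCAAT in 4 (38.2%) and TATAAA in 1 (12.6%). A match is a run of letters and was not tested for binding.

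Within 5 kb of the gene, open chromatin was listed at 8 of the 9 genes in every library, and Fas was the exception. For Bax, the region in all 12 libraries overlapped the neighbouring gene Ftl1, and the region at the Bax start was listed in 9. With 1 kb on each side, 7 genes had a region in every library. Of the 27 regions, 10 (37.0%) were listed in all 12 libraries, against 23.8% of the 97889 regions of the genome, and 6 were listed in 1 library. The 27 all lie within 5 kb of a gene, while the 97889 were not limited to the surroundings of genes. The part of this in the shares was not tested. With 5 kb on each side, 60.9% of protein-coding genes had a region in all 12 libraries and 18.6% had no region in any. Pmaip1 and Bbc3 each had 2 regions in all 12 libraries, and 21.3% of protein-coding genes had at least 2 such regions. Between 13 and 21 of the 27 regions were listed per library. The 21 were in synHPRT1 clone 1 replicate 3, with 63563 peaks, and the lists with 13 were the shortest in each genotype, with 38403 and 41737 peaks. With only peaks of a −log10 q-value of 5 or more, 4 of the 9 genes and 5 regions were listed in every library. The same numbers held when each library had to cover 50% of a region. The shares of all genes and regions under these 2 cuts were not taken, so the counts do not set the members apart.

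**Figure D1:**
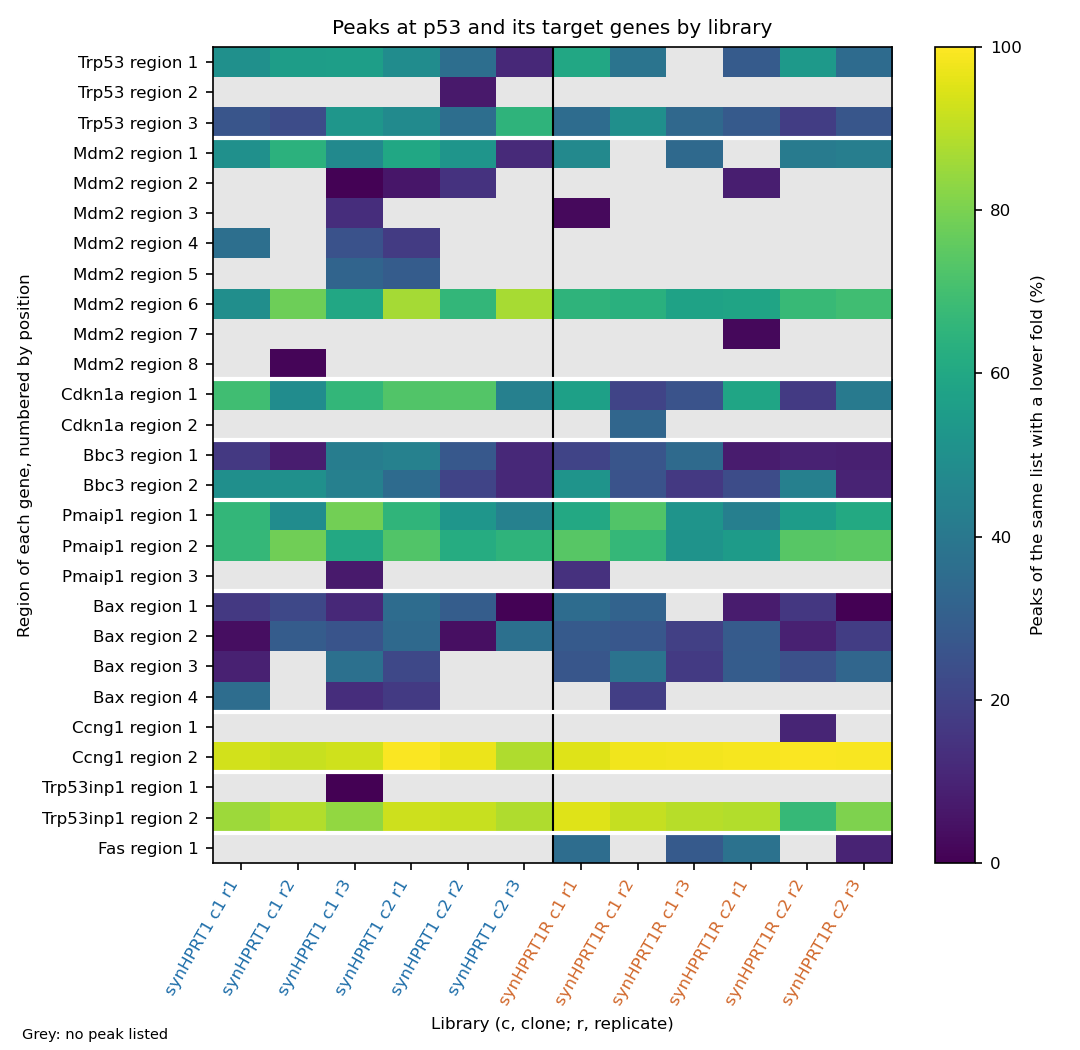
Rows are the 27 regions, numbered by position within each gene, columns are the 12 libraries (synHPRT1 left of the line, synHPRT1R right), and the colour gives the percent of peaks of the same list with a lower fold, grey meaning no listed peak. The 10 filled rows are the regions in all 12 libraries, and the Fas row is filled in 4 synHPRT1R libraries only.

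The strength of a peak was read as its in-list percentile, the percent of peaks of the same library's list with a lower deposited fold over local background. Among the 10 regions in all 12 libraries, 8 had a median percentile below that of the 23285 such regions of the genome, 73.9, and the median of the 10 was 55.18. The exceptions were the start of Ccng1, with a median of 97.5, and the gene end of Trp53inp1, with 88.4. Ccng1 ranked above Trp53inp1 in 10 of 12 libraries, and Trp53inp1 above the inner Pmaip1 region in 11 of 12. Further down the order, neighbours changed places in many libraries: the inner Pmaip1 region ranked above the Mdm2 start in 7 of 12, the outer Pmaip1 region above Cdkn1a in 7 of 12, and a Bax neighbour region above the Bbc3 start region in 6 of 12. For these neighbours the means over 12 libraries differed by less than the SD of either.

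**Figure D2:**
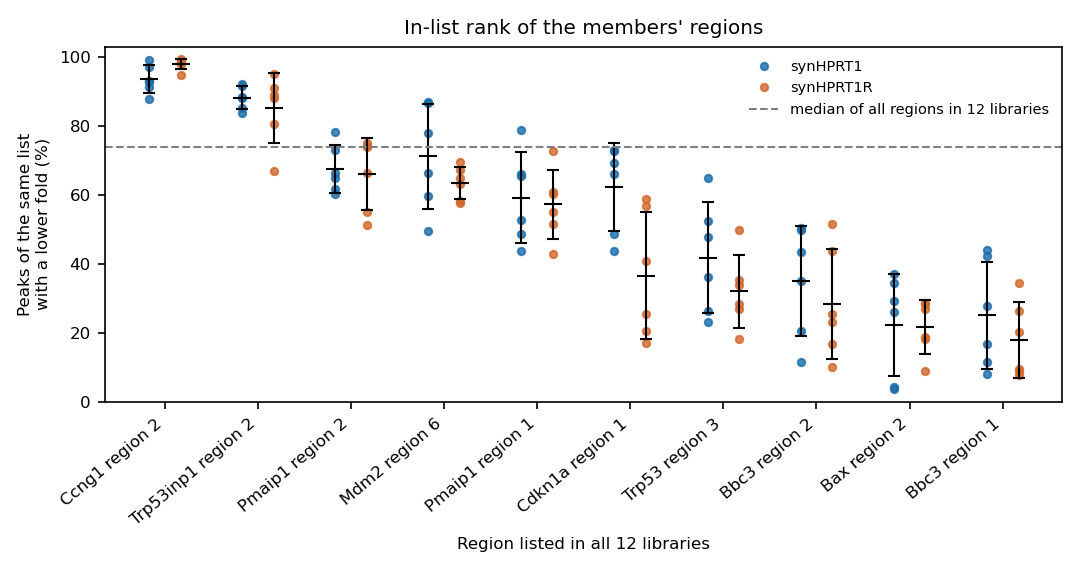
The y axis gives the percent of peaks of the same list with a lower fold, for each region listed in all 12 libraries, ordered by its median. Points are libraries (blue synHPRT1, orange synHPRT1R, 6 each), bars are mean and SD, and the dashed line at 73.9 is the median of all such regions; only Ccng1 and Trp53inp1 have means above it.

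Trp53 itself (gene ID 22059, chromosome 11, 69580348 to 69591873) was flanked by open chromatin, while its annotated start was listed in 1 of 12 libraries. One region, 69581064 to 69582373, lay inside the gene and was listed in all 12 libraries. Its summits lay between 1112 and 1736 bp downstream of the start, and its percentile ran from 18.3 to 64.9 with a median of 34.7, so that 4.0% of the constitutive regions of the genome ranked lower. The other region, 69578944 to 69579533, was listed in 6 synHPRT1 and 5 synHPRT1R libraries. It lay within Wrap53, the neighbouring gene, with summits from -1085 to -948 bp of the Trp53 start, where negative means upstream. Only synHPRT1 clone 2 replicate 2 listed a peak over the start window shown above, 69580242 to 69580442, at a percentile of 7.01. Of the 21263 promoter windows of protein-coding genes, 41.5% had a peak in all 12 libraries and 37.6% in none.

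Mdm2 (gene ID 17246, chromosome 10, 117688875 to 117710758, minus strand), the ubiquitin ligase that marks p53 for degradation, had 8 regions, the most of the 9 genes. Its start was covered by the region 117710394 to 117711678 in all 12 libraries, at percentiles from 49.5 to 87.0 with a median of 65.6. Over the 6 synHPRT1 libraries the mean was 71.2 ± 15.2 (SD), and over the 6 synHPRT1R libraries 63.5 ± 4.77. Summits lay from -149 to 75 bp of the start. At the far end of the gene, the region 117688155 to 117689089 was listed in 6 synHPRT1 and 4 synHPRT1R libraries.

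The other Mdm2 regions were weak. Some were listed in the longest lists and others only in a list of 45904 or of 46685 peaks, and the part of list length was not tested. Region 117697417 to 117697922, inside the gene, was listed in 3 synHPRT1 libraries and 0 synHPRT1R libraries, where 4.69% of regions listed in 1 to 11 libraries had at least 3 more synHPRT1 libraries. Region 117709747 to 117710278, with summits within 622 bp of the start, was listed in 2 and 0, the libraries with 63563 and 63704 peaks. In total, the 3 libraries of synHPRT1 clone 1 listed 4, 3 and 6 peaks at Mdm2, and those of synHPRT1 clone 2 had 5, 3 and 2. Either synHPRT1R clone had 3, 2 and 2. This gave 3.83 ± 1.47 against 2.33 ± 0.516 peaks (mean ± SD over 6 libraries), with ranges that overlapped at 2 and 3. The difference did not pass the two-sided exact permutation test (p = 0.0758, adjusted p = 1 over 15616 genes whose number of peaks varied). Across those genes 0 passed after adjustment (0%) and 165 had an unadjusted p under 0.05 (1.06%) by the same test. With 6 libraries against 6 the smallest p is 0.00216. For any to pass, 677 genes would have to reach it, or more genes a larger p, and 3 reached it. An adjusted p of 1 therefore says little about a single gene.

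Ccng1 (gene ID 12450, chromosome 11, 40748552 to 40755309, minus strand) encodes cyclin G1, which acts in the loop between p53 and Mdm2. Its start region, 40754666 to 40756113, was the strongest of the set. The fold at its summit ran from 8.64 to 12.8, and its percentile in synHPRT1 was 93.0, 91.4 and 92.9 in clone 1 and 99.2, 97.1 and 87.9 in clone 2. In synHPRT1R it was 95.0, 98.0 and 98.4 in clone 1 and 98.6, 99.4 and 98.8 in clone 2. The genotypes overlapped, and summits fell from -119 to 17 bp of the start. In synHPRT1R clone 2 replicate 2 it stood at rank 273 of 45731 peaks. Over all protein-coding genes with a peak, 95.9% had a lower median percentile for their strongest peak. The Ccng1 window held 4 CCAAT matches, the most of the 10 windows, and no GC box.

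Trp53inp1 (gene ID 60599, chromosome 4, 11156441 to 11174379), a nuclear protein that p53 induces under stress and that acts in cell death and autophagy, was open at its lower-coordinate gene end. The region 11155870 to 11156906 was listed in all 12 libraries at percentiles from 66.8 to 95.1. Its mean over 6 libraries was 88.3 ± 3.27 (SD) in synHPRT1 and 85.2 ± 10.1 in synHPRT1R. The lowest value was in synHPRT1R clone 2 replicate 2, the library where Ccng1 ranked highest.

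Cdkn1a (gene ID 12575, chromosome 17, 29090979 to 29100722), which encodes the cyclin-dependent kinase inhibitor p21, was open at one of its annotated starts. No library listed a peak over the upstream window that holds the p53 decamers, or anywhere else from 5 kb upstream of the gene to the region 29093347 to 29094067. That region covers the downstream start, 2790 bp further along, and was listed in 12 of 12 libraries. Summits lay from -157 to -25 bp of the downstream start. A single further peak, 29095408 to 29095689, was listed in synHPRT1R clone 1 replicate 2.

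The Cdkn1a percentile in synHPRT1 was 69.4, 48.6 and 66.2 in clone 1 and 72.8, 73.2 and 43.7 in clone 2. In synHPRT1R it was 56.7, 20.5 and 25.5 in clone 1 and 58.9, 17.0 and 41.0 in clone 2. The mean was 62.3 ± 12.9 (SD) over the 6 synHPRT1 libraries and 36.6 ± 18.4 over the 6 synHPRT1R libraries, and the ranges overlapped: replicate 1 of each synHPRT1R clone lay within the synHPRT1 range and the others below it. Percentiles come from lists of different length, so this difference was not tested.

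Bbc3 (gene ID 170770, chromosome 7, 16308398 to 16318334) encodes Puma, a BH3-only protein that triggers mitochondrial cell death. Both of its regions were listed in 12 of 12 libraries: 16309049 to 16310322, which covers 2 of its 3 annotated starts, and 16313531 to 16314521, inside the gene. What had separated the genotypes was a measure of a peak within 1 kb of the outermost gene ends, by which Bbc3 counted in 6 synHPRT1 and 1 synHPRT1R libraries. Of 4430 genes with such a peak in 1 to 11 libraries, 12 (0.271%) had at least 5 more synHPRT1 libraries, and this contrast chose Bbc3.

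The limit of that 1 kb window falls at -185 bp of the first start, inside the region itself. The lower edge of the peaks lay at -281, -365 and -534 bp of the first start in synHPRT1 clone 1 and at -366, -333 and -273 bp in clone 2, so that it passed the limit in all 6. In synHPRT1R the edge lay at 172, 71 and 259 bp in clone 1 and at -252, -91 and 49 bp in clone 2. Only synHPRT1R clone 2 replicate 1 passed the limit. The edges of the 2 genotypes did not overlap, the nearest being -273 bp in synHPRT1 and -252 bp in synHPRT1R. Of the 23285 regions in all 12 libraries the lower edges did not overlap in 68 (0.292%). The lower edge set the 1 kb count that chose Bbc3, so this share is no separate support for a difference. The higher-coordinate edges of Bbc3, from 13 to 739 bp in synHPRT1 and from 496 to 659 bp in synHPRT1R, overlapped, and across those regions they did not overlap in 0.236%. Counted within 500 bp of the gene ends, Bbc3 was listed in 0 and 0 libraries, and within 2 kb in 6 and 6.

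The place of the summit varied as well. The strongest summit lay at -170, -235 and 187 bp of the first start in synHPRT1 clone 1 and at -162, 571 and 494 bp in clone 2. In synHPRT1R it lay at 568, 477 and 572 bp in clone 1 and at 521, 27 and 572 bp in clone 2. The strongest summit was thus upstream of the start in 3 synHPRT1 and 0 synHPRT1R libraries. A weaker second peak of synHPRT1 clone 2 replicate 2, from 16309250 to 16309471, also had its summit upstream, at 16309387. The peak was weak in both genotypes, with percentiles from 7.69 to 44.0, and means over 6 libraries of 25.0 ± 15.5 (SD) for synHPRT1 and 17.8 ± 10.97 for synHPRT1R. Of the constitutive regions of the genome, 0.8% ranked lower. The first-start window shown above, with 76.0% G or C and 5 GC boxes against a median of 56.3% G or C over all windows, had a peak in 6 synHPRT1 and 3 synHPRT1R libraries. The windows of the other 2 starts, 678 and 848 bp further along, had one in 5 and 6 and in 3 and 2 libraries.

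**Figure D3:**
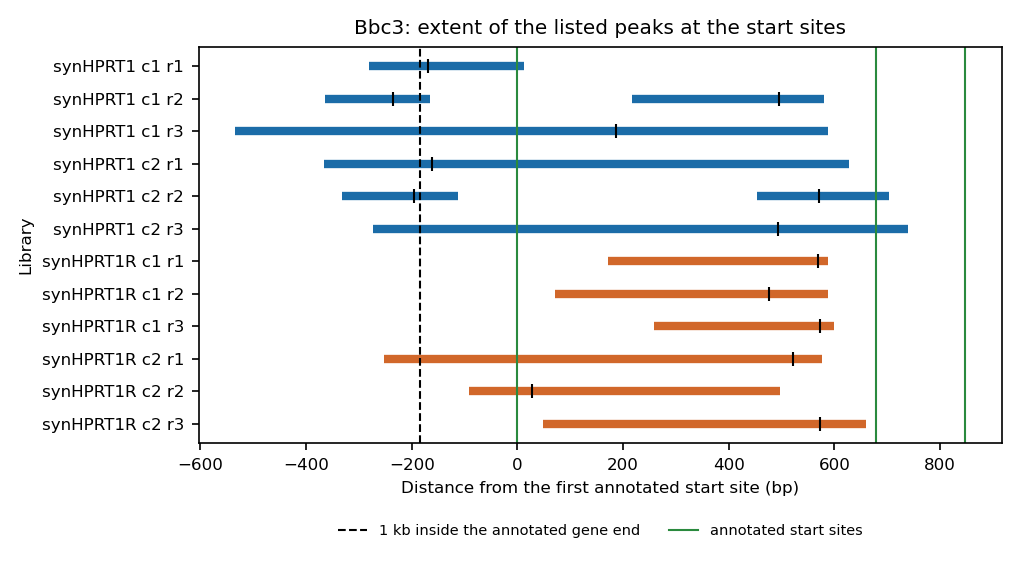
Bars are the listed peaks of the Bbc3 start region in each library (blue synHPRT1, orange synHPRT1R), ticks are their summits, and the x axis is the distance from the first annotated start in bp. All 12 libraries have a peak, and the dashed limit at -185 bp is crossed by 6 blue bars and 1 orange bar.

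The inner Bbc3 region had percentiles from 9.91 to 51.6, with means over 6 libraries of 35.1 ± 16.0 (SD) for synHPRT1 and 28.4 ± 16.1 for synHPRT1R. By the measure at the gene ends, 0 other protein-coding genes had the same pattern over the 12 libraries as Bbc3 and 7 differed in 1 library. The first 5 of these in genome order were Adam33, with 5 synHPRT1 and 1 synHPRT1R libraries, Zfp704, with 6 and 2, and Aldoa, Olfr1358 and Actg1, with 5 and 1 each.

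Pmaip1 (gene ID 58801, chromosome 18, 66458604 to 66465558) encodes Noxa, another BH3-only protein, and was open at 2 places in every library. One region, 66458271 to 66458999, covered the lower-coordinate gene end, with mean percentiles over 6 libraries of 59.3 ± 13.2 (SD) for synHPRT1 and 57.3 ± 10.1 for synHPRT1R. Inside the gene, from 2246 bp after that end, the region 66460850 to 66461788 had 67.5 ± 6.92 and 66.0 ± 10.5. The ranges of the genotypes overlapped in both, and the lowest percentile of the inner region was 51.3. Another region, 66468308 to 66468807, was listed in 1 library of each genotype, with 63563 and 58099 peaks.

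Bax (gene ID 12028, chromosome 7, 45461695 to 45466903, minus strand) encodes a pore-forming protein of the mitochondrial outer membrane, which BH3-only proteins help to activate. Its start region, 45466405 to 45467202, was listed in 3 of 6 synHPRT1 and 6 of 6 synHPRT1R libraries. The synHPRT1 libraries with the peak were clone 1 replicates 1 and 3, at percentiles of 9.35 and 36.8, and clone 2 replicate 1, at 21.9. In synHPRT1R the percentiles were 26.7, 38.1 and 16.8 in clone 1 and 29.1, 24.8 and 33.1 in clone 2. Two-sided Fisher's exact test on presence gave p = 0.182 (adjusted p = 1 over 74604 regions), and 1493 of those regions (2.00%) had at least 3 more synHPRT1R libraries. In lists shortened to equal length, a peak within 500 bp of the Bax start was listed in 0 synHPRT1 and 5 synHPRT1R libraries, and with a −log10 q-value of 5 or more in 1 and 2. Both of these counts were unplanned. No share of all regions was taken under these settings, so how common such a split is was not determined.

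The steadiest peak near Bax, 45459423 to 45460279, was listed in 12 of 12 libraries but overlaps the ferritin light chain gene Ftl1, beyond the far end of Bax. Without it Bax would have no region in every library. A further region beyond Ftl1, 45456947 to 45457863, was listed in 6 and 5 libraries, and one with summits from -4225 to -4190 bp of the Bax start, 45471029 to 45471467, in 3 and 1.

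Fas (gene ID 14102, chromosome 19, 34290647 to 34327775) encodes a death receptor of the cell surface and was the only member without a region in all 12 libraries. Its single region, 34290444 to 34290891, covers the annotated start and was listed in 0 of 6 synHPRT1 and 4 of 6 synHPRT1R libraries. Clone 1 replicates 1 and 3 had percentiles of 35.7 and 28.1, and clone 2 replicates 1 and 3 had 37.6 and 10.0. The fold ran from 3.65 to 4.49 and the −log10 q-value from 2.74 to 5.58. All 4 summits lay within 60 bp of each other, from 40 bp before to 20 bp after the start.

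The Fas peak was listed in synHPRT1R libraries with 58099, 41737, 45904 and 44693 peaks, and not in those with 52122 and 45731. The synHPRT1 lists, all without it, included the longest, with 63563 and 63704 peaks, and the shortest, with 38403. The part of list length was not tested. Two-sided Fisher's exact test gave p = 0.0606 with an adjusted p of 1 over 74604 regions, so the difference did not pass. At least 4 more synHPRT1R libraries were found in 302 of those regions (0.405%). No other peak lay within 5 kb of this 37129 bp gene in any library.

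**Figure D4:**
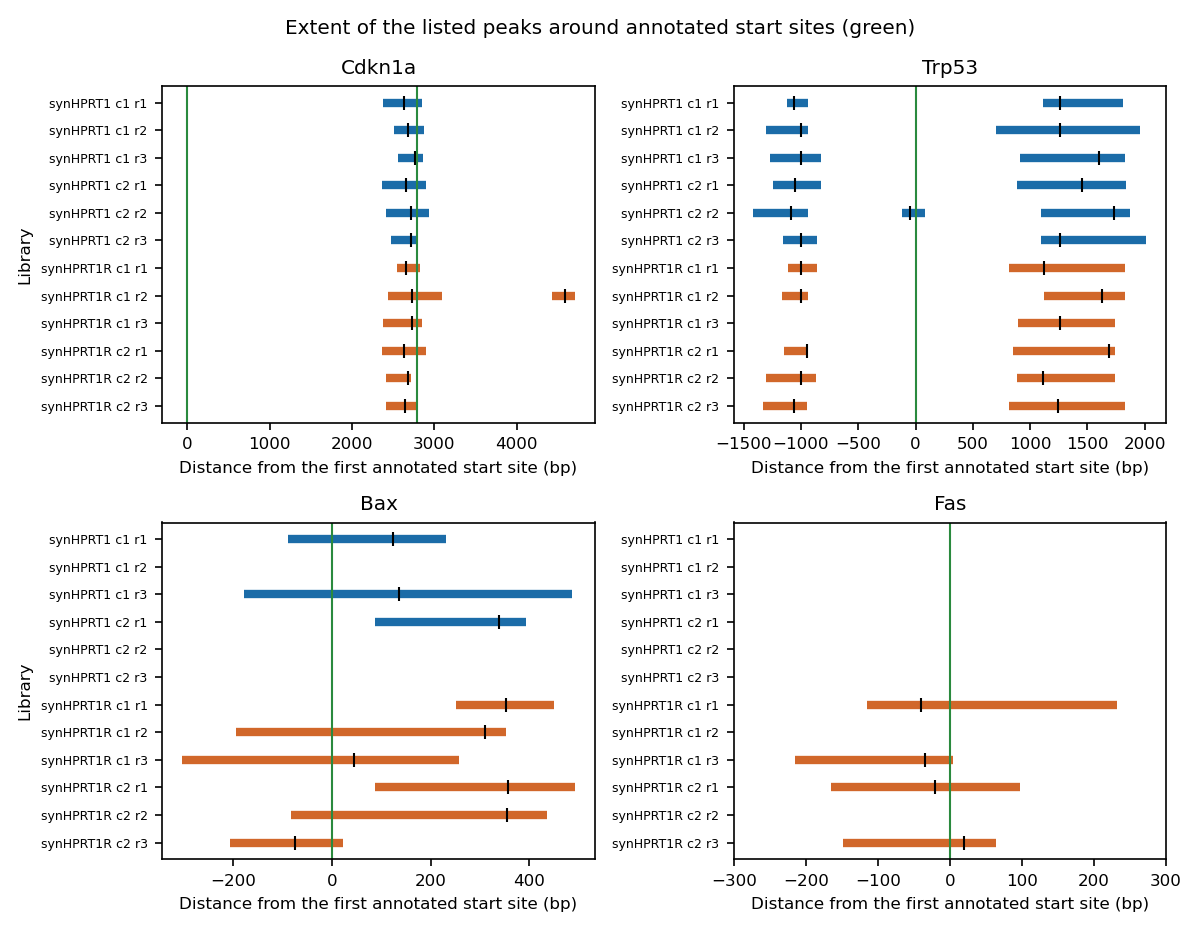
Bars are listed peaks in each library around the annotated starts (green lines) of Cdkn1a, Trp53, Bax (start region only) and Fas, ticks are summits, and the x axis is the distance from the first start in bp, positive in the direction of transcription. Cdkn1a peaks sit at the downstream start in 12 libraries, Trp53 peaks on both sides of the start, and Fas peaks in 4 orange synHPRT1R rows.

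Of the 27 regions, 17 were listed in 1 to 11 libraries and could be compared between genotypes by presence, none of them at Bbc3. More synHPRT1 libraries listed 10 of them, more synHPRT1R libraries 5, and 2 were equal, and the lean was the same way over the genome, with 50.3% and 33.1% of such regions. The number of peaks per gene did not pass the exact permutation test at any of the 8 members tested: the unadjusted p was 0.0758 for Mdm2, 0.0606 for Fas, 0.545 for Trp53 and 1 for the other 5, and each adjusted p was 1. After Benjamini-Hochberg adjustment of the Fisher's exact tests 0 passed, and 0 had an unadjusted p under 0.05, where 0 of the 74604 regions of the genome (0%) passed and 164 (0.220%) had an unadjusted p under 0.05. For any region to pass, 3230 would have to reach the smallest p, or more regions a larger p, and 14 reached the smallest. Between the clones of a genotype, 0 member regions were listed in all 3 libraries of one clone and in none of the other, against 0.498% of regions in synHPRT1 and 0.760% in synHPRT1R.

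Other genes of the p53 network were counted in the same way, against 63.3% of all protein-coding genes with a peak in 12 of 12 libraries. Of 16 p53 family members and regulators, 15 had a peak in 12 of 12 libraries, and Kat5 had one in 11. The highest median percentiles were those of Atm, the kinase that signals DNA breaks, at 97.9, Rchy1, a ubiquitin ligase for p53, at 96.8, and Trp53bp1, a p53-binding repair factor, at 95.0. Of 26 other p53 targets, 24 had a peak in every library, and Ephx1 and Tnfrsf10b had one in 11. Gadd45a, a growth arrest gene, reached 96.6, Polk, a DNA polymerase that bypasses damage, 95.9, and Xpc, a damage sensor of excision repair, 94.9. Of 15 genes of the Bcl2 family and caspases, 13 did, led by Bcl2l2 at 98.1, Bcl2l1 at 90.1 and Bcl2 at 87.2. These leading genes all encode proteins that restrain cell death. Casp8 had a peak in 7 libraries and Hrk in 6. The percentiles are those of the strongest peak in the span with 5 kb added, which can lie in a neighbouring gene. By the 1 kb measure used for Bbc3, Bcl2l2 counted in 7 libraries and Bcl2l1 and Trp53bp1 in 0. Atm, Rchy1, Gadd45a, Polk, Xpc and Bcl2 counted in 12. Whether the strongest peaks lie at the starts of these genes was not tested.

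The median percentile of the strongest peak was 52.7 over the 9 members, 89.1 over the regulators, 81.0 over the other targets and 71.0 over the Bcl2 family and caspases, against 73.6 over all protein-coding genes with a peak. The lists differ in gene length, whose part in these counts and medians was not tested: the median was 9937 bp for the members, 56414.5 bp for the regulators and 17169 bp over all genes. Hrk, a BH3-only gene, had a peak in 5 synHPRT1 and 1 synHPRT1R libraries (exact permutation test on the number of peaks, p = 0.0671, adjusted p = 1). For Hrk, the share of all genes that differ by at least 4 libraries was not taken. In these 3 lists 0 genes passed the permutation test after adjustment. Bcl2l1 had the only unadjusted p under 0.05 (exact permutation p = 0.0368), with 6.67 peaks in synHPRT1 and 4.83 in synHPRT1R on average. By the same test 165 of 15616 genes (1.06%) had an unadjusted p under 0.05, so 1 such gene does not set these lists apart.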

How the data were processed

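Each of the 12 libraries has its own peak list as the authors deposited it, so peaks were called per library. The builds are GRCm38 and mm10, and the tools MACS2 2.1.0, Bowtie2 2.2.9, SAMtools 1.9, bcl2fastq 2.20 and deepTools 3.5.0, per the submitters' processing notes, with settings not given in the sources used here. The lists have no header and follow the narrowPeak layout: the deposited fold is a ratio over local background, significance was deposited as a −log10 p-value and a −log10 q-value per peak (lowest −log10 q-value 1.30), and the deposited score was not used. Alleles are not separated. Fold served only to rank peaks within a list.

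Peaks on chromosomes 1 to 19, X and Y that shared at least 1 bp were merged over libraries (Python 3.11.15, pandas 2.3.3). Presence was compared between genotypes with two-sided Fisher's exact tests (SciPy 1.17.1) and the number of peaks per protein-coding gene with exact permutation tests over all 924 splits, each with Benjamini-Hochberg adjustment over all regions or genes and a threshold of 0.05. The smallest p with 6 against 6 is 0.00216. Both were run on simulated data in which a large share of rows was made to differ strongly between genotypes. In these data few regions or genes reached the smallest p, so the simulation does not show that a call could be made here. Clones are the independent unit, and an exact permutation test of 2 against 2 clones cannot go below p = 0.333, so clones are shown separately with no test. Exon and intron places were not determined.

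All members are named; list genes are named where they had no peak, differed by at least 4 libraries or were among the 3 strongest of a list. Kat5, Ephx1, Tnfrsf10b and Casp8 were named after their values were seen. One list gene that the rule names is not reported here. For the pattern of Bbc3, up to 5 genes that differed in the fewest libraries were named in genome order. Members and lists were chosen with earlier results of these data known. No Bbc3 region varied, so the planned comparison of one was replaced by the measure at the gene ends. Alternatives were stricter and equal-length lists, 50% coverage, other windows, left-out libraries and a replicate block.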

Additional observations from a re-analysis of the deposited data

Results flagged for a closer look

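Of 22 groups of 6 libraries checked for a library far from the others, 2 held one, and chance gives about 1 in 20. The Ccng1 start region had a percentile of 95.0 in synHPRT1R clone 1 replicate 1, while the other synHPRT1R libraries lay between 98.0 and 99.4. The lower edge of the Bbc3 start region lay at -349 bp from the limit of the 1 kb window in synHPRT1 clone 1 replicate 3, while the other synHPRT1 libraries lay between -181 and -88 bp. The Bbc3 value belongs to one of the longest lists, with 63563 peaks, and the part of list length in it was not tested.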

How the results depend on the processing

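No region and no gene passed between genotypes under any alternative run: strict lists (−log10 q-value 5 or more), lists of equal length, 50% coverage, spans with 1 kb or 10 kb, the replicate block and each library left out (0 to 0 calls in each). With a smallest p of 0.00216 before any library is left out, a call needs 3230 regions or 677 genes at that p, so these zeros were nearly fixed and do not show stability. The number of members with a region in all libraries, 8, was 4 in strict lists and 4 at 50% coverage, 6 in lists of equal length, 7 with 1 kb and 8 with 10 kb on each side, and 8 to 8 without 1 library. Member regions in all libraries, 10, were 5 in strict lists, 5 at 50% coverage, 8 in lists of equal length, and 10 to 12 without 1 library. The shares of all genes and regions were not taken under these alternatives. Bbc3 at the gene ends, 5 more synHPRT1 libraries, had 2 more in strict lists, 4 more in lists of equal length, 3 more in clone 1 and 2 more in clone 2 of each genotype, 0 more at 500 bp and 0 more at 2 kb (both distances chosen after seeing the data), and 4 to 6 more without 1 library. One member region separated the clones in strict lists (1 against 0), and 0 to 0 did without 1 library. The mean over libraries of the members' median percentile, 58.1 ± 10.8 (SD, n = 12), was 59.9 in lists of equal length, 66.0 when ranked by −log10 p-value and 56.8 to 60.3 without 1 library. Fas had 2 more synHPRT1R libraries in strict lists and 3 more in lists of equal length. Bax, within 500 bp of its start, had 1 and 5 more. These Fas and Bax counts were not planned. Replicate numbers did not pair the libraries: deviations of same-numbered libraries correlated between -0.034 and 0.033 over 18 pairs, so the replicate block, with 0 calls, shares only numbers. Stricter and shorter lists hold fewer weak peaks, and 8 of the 10 constitutive member regions are weaker than the genome's median, which limits what absence shows.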
